A study of Saccharomyces cerevisiae with 36 samples.

Results

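The comparison was between a pair of budding yeast strains that, by the strain list of the study, differ only in the replacement made at lysines 5 and 12 of histone H4. In H4K5,12Q both lysines were replaced by glutamine (K5Q and K12Q), which carries no charge and is used as a mimic of acetyl-lysine. In H4K5,12R both were replaced by arginine (K5R and K12R), which keeps the positive charge and cannot be acetylated. Each strain had 2 arrays of cells arrested by starvation (G0), 4 of the 36 arrays of the series. The question was which transcripts differ between an acetyl-mimic and a non-acetylatable H4 tail in cells that no longer divide.

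Lysines 5 and 12 are the sites that Hat1 acetylates on newly made H4 before the histone reaches chromatin. Hat1 acts together with Hat2, and with the histone chaperone Hif1 in the nuclear NuB4 complex. The acetyl groups are removed after the histone is deposited, and the H4 tail is also a contact surface for bromodomain proteins and for the Sir proteins that silence genes near chromosome ends.

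By the same list, both strains derive from the wild-type strain that was also starved and profiled. The list gives all 8 strains profiled in G0 as MATa, with the HHT1-HHF1 gene pair replaced by LEU2 and an HHT2 gene with exchangeable HA and T7 tags. It also gives these strains deletions at HIS3, LEU2, LYS2, MET15, URA3 and BAR1. The 8 strains also carry a Cre recombinase fused to an estrogen-binding domain, driven by the TDH3 promoter. The H4 mutants carry their substitutions in HHF2, which is then the only H4 gene. The other 6 strains, with 2 arrays each, were the wild type, the single mutants hat1Δ, hat2Δ and hif1Δ, and the double mutants hat1Δhif1Δ and hat2Δhif1Δ. Starvation was in rich medium, and each H4 mutation was represented by 1 strain. The study describes independently inoculated cultures, but the labels do not say which culture an array holds, so the p-values measure the spread between arrays, which may be technical.

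Each array compared the RNA of a strain, labelled as nuclear RNA, with 1 common wild-type reference RNA, and values are log2 ratios of strain over reference. The strain was in Cy3 on replicate a and in Cy5 on replicate b. Median foreground was 7.29 to 9.86 times background in the strain channel of the 4 arrays and 5.85 to 7.29 times in the reference channel. Between 96.7% and 99.1% of probes were above background in the strain channel. The arrays of H4K5,12Q correlated with each other at 0.97 across probes and those of H4K5,12R at 0.98. ATG33, a mitophagy gene, was above background on every spot in both channels for H4K5,12Q, H4K5,12R, hat1Δhif1Δ and hat2Δhif1Δ, and on 0 of 8 spots for each of the other 4 strains. The H4 mutants therefore lie in the same set of arrays by this probe, and the wild type lies in another.

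The labels name the strain background BY4742 in both channels, whereas the a-specific genes were far above the reference in both mutants. STE2, the receptor for alpha-factor, had ratios of 4.61 and 5.12 in H4K5,12Q and of 4.61 and 5.21 in H4K5,12R. STE3, the receptor for a-factor that alpha cells use, lay between -1.62 and -1.36 on the 4 arrays. The mating type was the same in the H4 mutants, as MATa in the strain list states. MET17, the gene also named MET15, lay between -4.53 and -4.16. BAR1, which the strain list gives as deleted, had ratios of 3.03 to 3.31. The signal of its probe thus does not bear out that deletion, and the source of the signal was not tested.

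No probe passed the test between the H4 mutants. At an adjusted p under 0.05 (Benjamini-Hochberg, limma), 0 of 6388 probes differed, a share of 0%. The lowest adjusted p was 0.0788. At an unadjusted p under 0.05, 145 probes were higher in H4K5,12Q (2.27% of those tested) and 122 were lower (1.91%). In this fit the 2 shares together are below the level of the test itself, which was not so in every fit. With only the 4 arrays of the H4 mutants, 444 probes were higher and 361 lower at this unadjusted level. With the 8 arrays of the same set these counts were 283 and 252, and with all 36 arrays 286 and 296. In these fits the shares together are above the level of the test. Over 27 alternative analyses the counts ran from 72 to 444 higher and from 78 to 361 lower. Both H4K5,12Q arrays lay above both H4K5,12R arrays for 585 probes (9.16%) and below them for 638 (9.99%). The genes named in the following paragraphs are therefore a description of the strongest candidates and did not pass the test.

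Differences were small over the whole transcriptome. The median difference, H4K5,12Q minus H4K5,12R, was 0.01 on the log2 scale, with an SD of 0.13 over probes, and 93.8% of probes lay within 0.25 of 0. The 95% confidence interval of a difference reached a median of 0.24 to either side, with 0.15 at the 10th percentile of probes and 0.44 at the 90th. The difference that 2 arrays per strain could resolve thus varied from probe to probe. Only 7 probes differed by more than 1.7-fold, 1 of them higher in H4K5,12Q and 6 lower, and 2 of the 7 have no gene name.

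**Figure D1:**
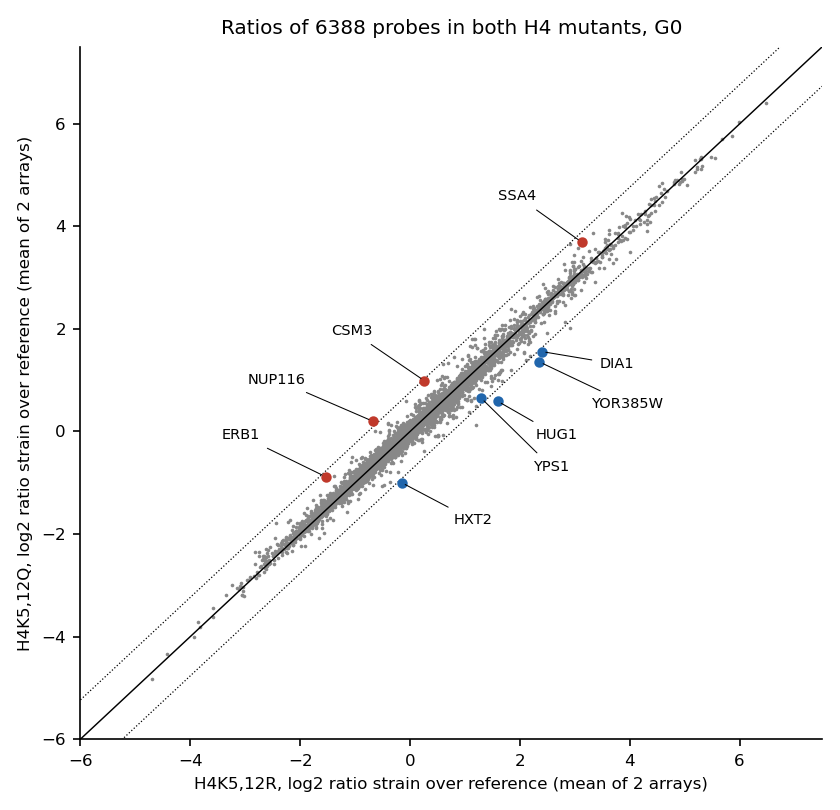
Log2 ratio of strain over reference in H4K5,12Q (y axis) against H4K5,12R (x axis), each the mean of 2 arrays, for 6388 probes. The solid line marks equal ratios and the dotted lines a 1.7-fold difference, and only 7 probes fall outside the dotted lines.

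Among the 28 pairs that the 8 G0 strains form, the H4 mutants were, by a narrow margin, the pair with the smallest spread of differences. The SD of the log2 differences was 0.133 for H4K5,12Q against H4K5,12R. It was 0.137 to 0.219 for the 15 pairs of strains without an H4 mutation and 0.219 to 0.272 for the 12 pairs of an H4 mutant with another strain. In the same fit, 1 to 21 probes were called in the 15 pairs and 38 to 436 in the 12 pairs. Each of the 15 pairs differs by a deletion of HAT1, HAT2 or HIF1, so the probe of a deleted gene can itself be called. The H4 mutants differ from each other by no such deletion, so their count of 0 is not set against a like count. At an unadjusted p under 0.05 the H4 mutants had 267 probes, within the 227 to 809 of the 15 pairs. Same-letter arrays of the H4 mutants also deviated together more than in any other pair (correlation 0.76). Shared deviations cancel in a difference of strain means, and their part in the small spread was not tested. The pairs share arrays and have no test among themselves.

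**Figure D2:**
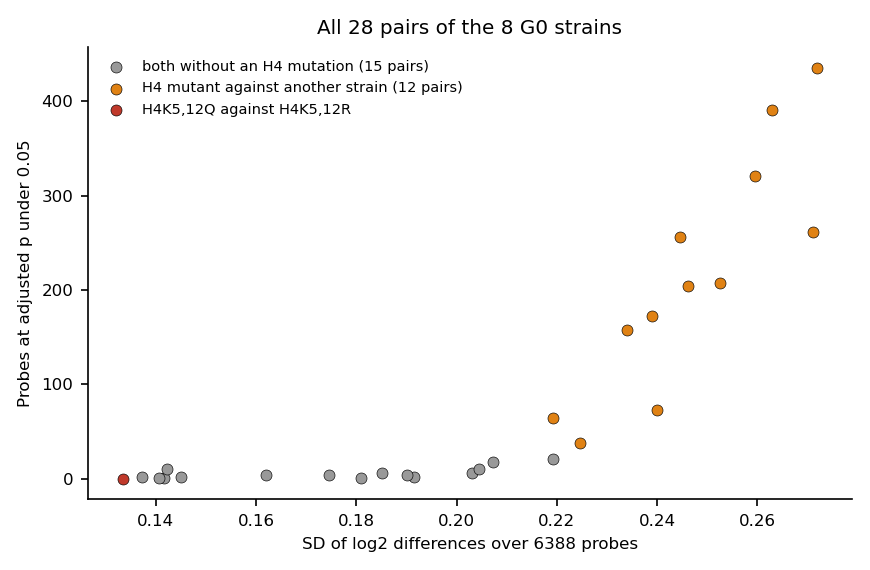
SD of the log2 differences over 6388 probes (x axis) and number of probes at an adjusted p under 0.05 (y axis) for each of the 28 pairs of G0 strains. H4K5,12Q against H4K5,12R has an SD of 0.13 and 0 probes called, and the 12 pairs of an H4 mutant with another strain lie at 0.22 to 0.27.

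Both H4 mutants differed from the double mutants hybridised in the same set. Against hat1Δhif1Δ, 64 probes were called for H4K5,12Q (1% of those tested) and 256 for H4K5,12R (4.01%). Against hat2Δhif1Δ, 158 were called for H4K5,12Q (2.47%) and 321 for H4K5,12R (5.03%). Whether these counts differ between the H4 mutants was not tested. For H4K5,12Q against hat1Δhif1Δ and H4K5,12R against hat2Δhif1Δ, which share no array, 33 probes were called in both, 51.6% of the first list and 10.3% of the second, all with the same sign. In the crossed pairing 58 probes were called in both, 36.7% and 22.7% of the lists, again all with the same sign. These comparisons are not independent, since the same fit gave all of them a common spread per probe and a common dye term. Both double mutants also lack HIF1, and same-letter arrays of the H4 mutants deviated together (correlation 0.76). The overlap is a description.

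In all 4 of these comparisons 25 probes were called, of which 17 have a name, 6 higher in the H4 mutants and 11 lower. One of them is HIF1, which the double mutants lack. RAS2, which encodes a GTPase of the nutrient-sensing cAMP pathway, had ratios of -0.16 and -0.11 in H4K5,12Q and of 0.03 in both H4K5,12R arrays. On the 12 arrays of the other G0 strains RAS2 lay between -1.12 and -0.68, so both H4 mutants stood above all of them. DLD3, a D-lactate dehydrogenase of the cytoplasm, lay at 0.26 and 0.36 in H4K5,12Q and at 0.31 and -0.43 in H4K5,12R, against -1.31 to -0.49 on the 12 other arrays. Among the 11 lower genes, SDA1 had ratios of -1.03 and -1.04 in H4K5,12Q and of -1.13 in both H4K5,12R arrays. The 12 other arrays lay between -0.39 and -0.01. DDI3 had ratios of 0.68 and 0.55 in H4K5,12Q and of 0.58 and 0.90 in H4K5,12R. It lay at 1.69 to 1.85 in the double mutants and at 0.11 to 1.91 on all 12 other arrays. DDI2, also among the 11, had similar ratios, 0.66 and 0.46 in H4K5,12Q and 0.58 and 0.79 in H4K5,12R. Whether the DDI2 and DDI3 probes share signal was not tested, so they may not count as separate genes.

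The differences of lowest p between the H4 mutants were in NUP116 and CSM3, which are adjacent on chromosome XIII. ERB1, which follows CSM3, was not among the 10 named genes of lowest p that were higher in H4K5,12Q. It is described with them for its position. NUP116 encodes a nucleoporin with FG repeats, CSM3 a subunit of the replication fork protection complex, and ERB1 a factor for maturation of the large ribosomal subunit. NUP116 had ratios of 0.06 and 0.34 in H4K5,12Q and of -0.88 and -0.48 in H4K5,12R. On the 12 other G0 arrays NUP116 lay between -1.18 and -0.60. Thus H4K5,12Q stood above all 14 other G0 arrays, and H4K5,12R lay within or just above the range of the strains without an H4 mutation. The difference was 0.88 (SE 0.12, 95% interval 0.62 to 1.14, adjusted p = 0.0788 in limma), a 1.84-fold higher level in H4K5,12Q.

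CSM3, the next gene in order, had ratios of 0.82 and 1.16 in H4K5,12Q and of 0.08 and 0.45 in H4K5,12R, with -0.06 to 0.35 on the 12 other arrays. Its difference was 0.73 (SE 0.09, 95% interval 0.52 to 0.94), a 1.66-fold higher level at the same adjusted p of 0.0788. ERB1 had ratios of -0.71 and -1.06 in H4K5,12Q and of -1.33 and -1.74 in H4K5,12R, with -1.71 to -1.21 on the 12 other arrays. Its difference was 0.65 (SE 0.20, unadjusted p = 0.008, adjusted p = 0.68), with H4K5,12Q again above every other G0 array. Each probe has 2 spots on the array, and the spots gave differences of 0.88 and 0.88 for NUP116, 0.74 and 0.72 for CSM3 and 0.71 and 0.59 for ERB1.

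The genes on either side did not share this difference. In the order of the reference annotation, Ty1 retrotransposon genes lie on both sides of the 3 genes. YMR046C, the Gag gene of the Ty1 element before NUP116, differed by -0.04 (SE 0.24). Its probe can also bind other Ty1 copies. It was at 2.72 to 2.95 on the 4 arrays of the H4 mutants and at 1.65 to 2.51 on the 12 other arrays. YMR045C, YMR050C and YMR051C, the other Ty1 genes there, have no named probe. Beyond the Ty1 genes, IOC4, a subunit of a chromatin remodeler, differed by -0.02, and MCM1, a MADS-box transcription factor, by 0.13. On the other side FAR3, a gene of the pheromone-induced cell cycle arrest, differed by -0.07, and STB2 by 0.00. The DNA of the strains was not measured, and whether its copy number differs in this segment was not tested.

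**Figure D3:**
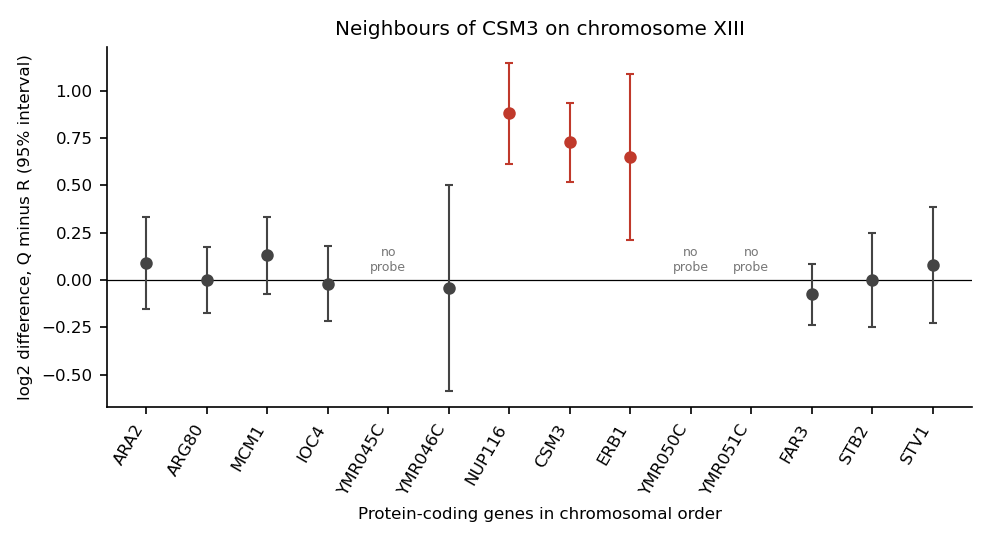
Log2 difference between H4K5,12Q and H4K5,12R with its 95% confidence interval (y axis) for protein-coding genes in chromosomal order around CSM3 (x axis), from all 16 G0 arrays. NUP116, CSM3 and ERB1 lie at 0.65 to 0.88, while the measured neighbours lie between -0.07 and 0.13.

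The call for NUP116 depended on the processing. NUP116 passed an adjusted p under 0.05 in 9 of 27 alternative analyses, with differences of 0.76 to 0.96, and CSM3 passed in 4. With normalization within print tips CSM3 differed by 0.28 in place of 0.73.

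Genes of the general stress response tended to be higher in H4K5,12Q. These genes, many of them targets of the transcription factors Msn2 and Msn4, encode chaperones, trehalose enzymes and protectants that accumulate in starved cells. Of 28 genes measured, 22 were above 0 in the difference and 6 below, with a median of 0.16 against 0.01 for all probes. At an unadjusted p under 0.05, 8 were higher (28.6%, against 2.27% of all probes) and 0 were lower. None passed the adjusted threshold. The median ratio of the list was 3.25 and 3.47 on the H4K5,12Q arrays and 3.04 and 3.26 on the H4K5,12R arrays, so the strains overlapped unless arrays of the same dye orientation were set against each other. It was 2.85 to 3.23 on the 12 other G0 arrays. The count of 8 became 7 without H4K5,12Q replicate a, 3 without H4K5,12Q replicate b, 4 without H4K5,12R replicate a and 5 without H4K5,12R replicate b. It was 5 with median centring of the ratios and 3 when all 36 arrays were fitted.

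SSA4, an inducible Hsp70 chaperone, had ratios of 3.72 and 3.67 in H4K5,12Q and of 3.10 and 3.15 in H4K5,12R. The 12 other arrays lay between 3.10 and 3.75, so both mutants were within the range of the other strains, at its upper and lower ends. The difference was 0.57 (SE 0.09, adjusted p = 0.195), a 1.48-fold higher level in H4K5,12Q.

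HSP42, a small heat shock protein, had ratios of 4.02 and 4.49 in H4K5,12Q and of 3.75 and 3.97 in H4K5,12R, a difference of 0.39 (SE 0.08). ALD3, a cytoplasmic aldehyde dehydrogenase, had ratios of 3.51 and 3.36 against 3.02 and 2.97, and both H4K5,12Q arrays were above the 12 others, which reached 3.10. HSP104, the disaggregase, had ratios of 3.19 and 3.34 against 2.88 and 2.72, a difference of 0.46 (SE 0.17). For these 3 genes the arrays of the H4 mutants did not overlap. HSP26, the other abundant small heat shock protein, was at 5.04 and 6.47 in H4K5,12Q and at 5.24 and 6.47 in H4K5,12R, a difference of -0.10 (SE 0.35).

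The wider chaperone set showed the same tendency. This list was written after the values of SSA4, HSP42, HSP10 and SIS1 had been seen, shares 7 genes with the stress list, and is a description only. Of 36 genes measured, 30 were above 0 and 6 below, with a median of 0.23, and 14 were higher at an unadjusted p under 0.05 with 0 lower. The 14 were 38.9% of the list, against 2.27% higher and 1.91% lower over all probes. The count of 14 became 12 without H4K5,12Q replicate a, 9 without H4K5,12Q replicate b, 10 without H4K5,12R replicate a and 8 without H4K5,12R replicate b. It was 8 with normalization within print tips and 9 with the deposited ratios.

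HSC82, the constitutive Hsp90, had ratios of -0.09 and 0.09 in H4K5,12Q and of -0.58 and -0.69 in H4K5,12R. The 12 other arrays lay between -0.29 and 0.35, so it was H4K5,12R that stood below all other G0 arrays. The difference was 0.64 (SE 0.18, unadjusted p = 0.00502). HSP82 and HSC82 are near-identical copies, and their probes may share signal. HSP82, the inducible Hsp90, differed by 0.67 (SE 0.23), and this difference was -0.02 with normalization within print tips.

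SIS1, an Hsp40 cochaperone, had ratios of 0.67 and 0.55 in H4K5,12Q and of 0.21 and 0.11 in H4K5,12R. Again the H4K5,12R arrays were below the 12 others, which lay between 0.31 and 0.62. FES1, a nucleotide exchange factor of Hsp70, had ratios of 0.96 and 1.10 in H4K5,12Q against 0.53 and 0.56 in H4K5,12R, with the lowest of the 12 others at 0.63. HSP10, the mitochondrial cochaperonin, had ratios of 0.95 and 0.49 against 0.57 and 0.08. Its arrays overlapped across dye orientations, while within each orientation H4K5,12Q was higher. The mitochondrial chaperones HSP60 and SSC1 differed by 0.35 (SE 0.11) and 0.30 (SE 0.12).

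**Figure D4:**
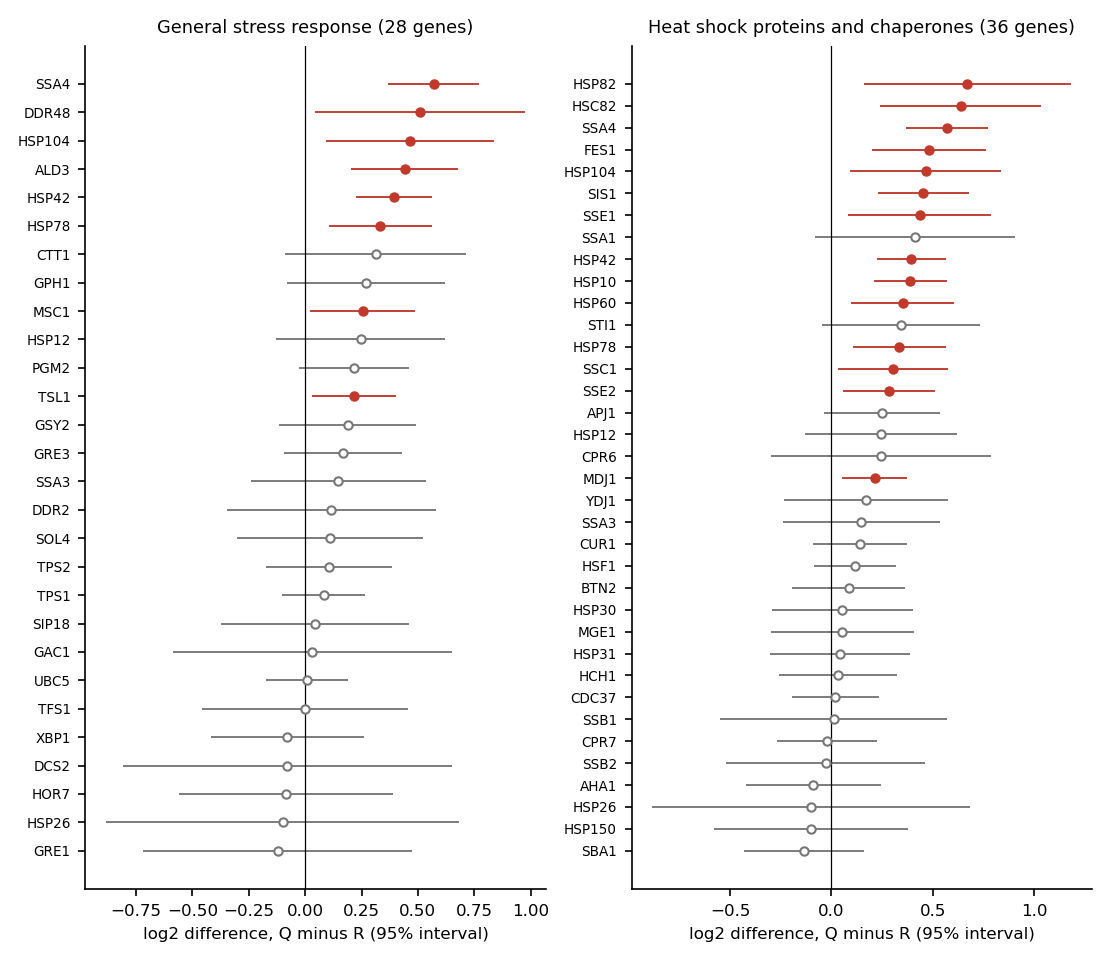
Log2 difference between H4K5,12Q and H4K5,12R with its 95% confidence interval (x axis) for the 28 general stress genes (left) and the 36 heat shock and chaperone genes (right), from all 16 G0 arrays. Filled red points have an unadjusted p under 0.05, 8 on the left and 14 on the right, all above 0, and none passed the adjusted threshold.

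Outside the chaperones, the genes of lowest p that were higher in H4K5,12Q were YKL222C, a gene predicted to encode a zinc-cluster factor, ALT2, a paralog of alanine transaminase, EMI2, a glucokinase paralog, and OLA1, a P-loop ATPase. ALT2 had ratios of 0.92 and 1.07 in H4K5,12Q and of 0.45 and 0.53 in H4K5,12R, a difference of 0.51 (SE 0.10), and the 12 other arrays did not exceed 0.90. EMI2 had ratios of 0.89 and 1.22 against 0.54 and 0.74, and both H4K5,12Q arrays were above the 12 others, which reached 0.82. YKL222C differed by 0.42 (SE 0.08), with H4K5,12R at -0.01 and -0.45, below all 12 other arrays. OLA1 differed by 0.49 (SE 0.11).

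HUG1, a small protein induced by DNA damage that inhibits ribonucleotide reductase, was lower in H4K5,12Q. Its ratios were 0.69 and 0.49 in H4K5,12Q and 1.33 and 1.86 in H4K5,12R, and the 12 other arrays lay between 0.37 and 1.49 with a median of 1.14. H4K5,12Q thus lay in the lower part of the range of the other strains, and H4K5,12R in its upper part and above it. The difference was -1.003 (SE 0.17, 95% interval -1.38 to -0.63, adjusted p = 0.21). A list of DNA damage response genes, written after this value had been seen, had a median of -0.07 over 13 genes. In it 1 gene, HUG1 itself, was lower at an unadjusted p under 0.05 (7.7%, against 1.91% of all probes). The ribonucleotide reductase genes RNR2, RNR3 and RNR4 differed by -0.35, -0.26 and -0.19, with SEs of 0.20 to 0.31.

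Most of the 10 named genes of lowest p that were lower in H4K5,12Q had H4K5,12R outside the range of the other strains. Among the 10 named genes of lowest p in this direction, both H4K5,12R arrays lay outside the range of the 12 other arrays for 8 and both H4K5,12Q arrays for 0. Among the 10 in the other direction the H4K5,12Q arrays lay outside for 4 and the H4K5,12R arrays for 3. These genes were chosen for their difference, so the counts are a description. The same counts were not made over all probes. H4K5,12R also had more probes called against each double mutant, 256 and 321, than H4K5,12Q, 64 and 158. The counts are therefore not read as a trait of these genes. YOR385W, of unknown function, had ratios of 1.47 and 1.24 in H4K5,12Q and of 2.45 and 2.26 in H4K5,12R. The 12 other arrays reached 1.49, so H4K5,12R was above all of them and H4K5,12Q was within their range. The difference was -0.998 (SE 0.19, adjusted p = 0.252). DIA1, a gene of invasive growth, had ratios of 1.60 and 1.51 against 2.27 and 2.52, a difference of -0.84 (SE 0.27), with the 12 other arrays at 0.67 to 1.55.

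YPS1, a GPI-anchored protease of the cell surface, had ratios of 0.53 and 0.78 in H4K5,12Q and of 1.16 and 1.43 in H4K5,12R. The difference was -0.64 (SE 0.12, adjusted p = 0.252), and H4K5,12R was above the 12 other arrays, which reached 0.91. CMK2, a calmodulin-dependent kinase and target of the calcineurin pathway, had ratios of 1.77 and 1.19 against 2.39 and 1.96. The 12 other arrays spanned 0.67 to 2.21 for CMK2, so that only 1 H4K5,12R array lay outside. CHS1, a chitin synthase, had ratios of 0.46 and 0.19 against 0.89 and 0.68, a difference of -0.46 (SE 0.13), and both H4 mutants were above the 12 other arrays, which reached 0.16.

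A list of calcineurin and cell wall integrity targets, written after YPS1 and CMK2 had been seen, held 16 measured genes with a median of -0.13. YPS1, CMK2 and CHS1 were its 3 members lower at an unadjusted p under 0.05 (18.8% of the list, against 1.91% of all probes). Of the 16 genes 13 were below 0. The count of 3 was 7 with only the 4 arrays of the H4 mutants and 5 with all 36 arrays, fits in which 361 and 296 probes were lower over the whole table. RLM1 and CRZ1, the transcription factors of these pathways, differed by -0.01 and -0.09.

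MET14, the APS kinase of sulfate assimilation, had ratios of -0.87 and -0.72 in H4K5,12Q and of -0.16 and -0.27 in H4K5,12R. The 12 other arrays lay between -1.005 and -0.53, which again placed H4K5,12R outside them. The difference was -0.58 (SE 0.12, adjusted p = 0.283). In the list of sulfate and methionine genes, 18 of 22 measured genes were below 0, with a median of -0.07. At an unadjusted p under 0.05, 3 were lower (13.6%, against 1.91% of all probes) and 0 higher, namely MET14, MET10 and MET2. The count was 5 with a normexp offset of 10, with normalization within print tips, with the deposited ratios and with all 36 arrays. MET10, a subunit of sulfite reductase, differed by -0.32 (SE 0.10), and MET2, which acetylates homoserine, by -0.26 (SE 0.08). MET3, which acts before MET14 in the pathway, and MET16, which acts after it, differed by -0.06 and -0.05.

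Genes of iron uptake had the lowest median of the lists, at -0.19. Of 18 measured, 14 were below 0. FIT3, a cell wall mannoprotein that retains siderophores, had ratios of 0.00 and 0.57 in H4K5,12Q and of 0.88 and 0.79 in H4K5,12R, a difference of -0.55 (SE 0.17). FET3, the multicopper ferroxidase, had ratios of -1.80 and -1.35 against -1.10 and -1.20, a difference of -0.43 (SE 0.18). These were the 2 genes lower at an unadjusted p under 0.05 (11.1% of the list, against 1.91% of all probes), and 0 were higher (2.27% of all probes). The count was 0 without H4K5,12Q replicate a, 2 without H4K5,12Q replicate b, 1 without H4K5,12R replicate a and 3 without H4K5,12R replicate b. It was 4 without either array of hat2Δ or of the wild type, 5 without either array of hif1Δ, 4 to 6 with an offset of 10, print-tip loess or median centring, and 9 with the 4, the 8 or all 36 arrays, fits in which 252 to 361 probes were lower over the whole table, against 122. FTR1, the permease that works with Fet3, differed by -0.12 (SE 0.13), and FIT2, with a 95% interval of -1.20 to 0.70, could not be resolved.

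The other genes of lowest p with H4K5,12Q below H4K5,12R were OSW2, YFL064C, RIM8, HMS1 and VPS36. OSW2, a gene of spore wall assembly, had ratios of 1.31 and 1.49 in H4K5,12Q and of 1.98 and 2.25 in H4K5,12R, with 1.34 the highest of the 12 other arrays. HMS1, a bHLH protein of pseudohyphal growth, had ratios of 0.52 and 0.36 against 0.74 and 0.94, with 0.47 the highest of the 12. RIM8, an arrestin of the pH-sensing pathway, had ratios of 1.36 and 1.34 against 1.57 and 1.73, with 1.41 the highest of the 12. H4K5,12R was above all 12 other arrays for each of these 3 genes. VPS36, an ESCRT-II subunit, differed by -0.30 (SE 0.08), with arrays that overlapped across dye orientations. YFL064C, an open reading frame of a Y' element at a chromosome end, differed by -0.60 (SE 0.14), but it has near-identical copies and the value cannot be given to 1 locus.

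**Figure D5:**
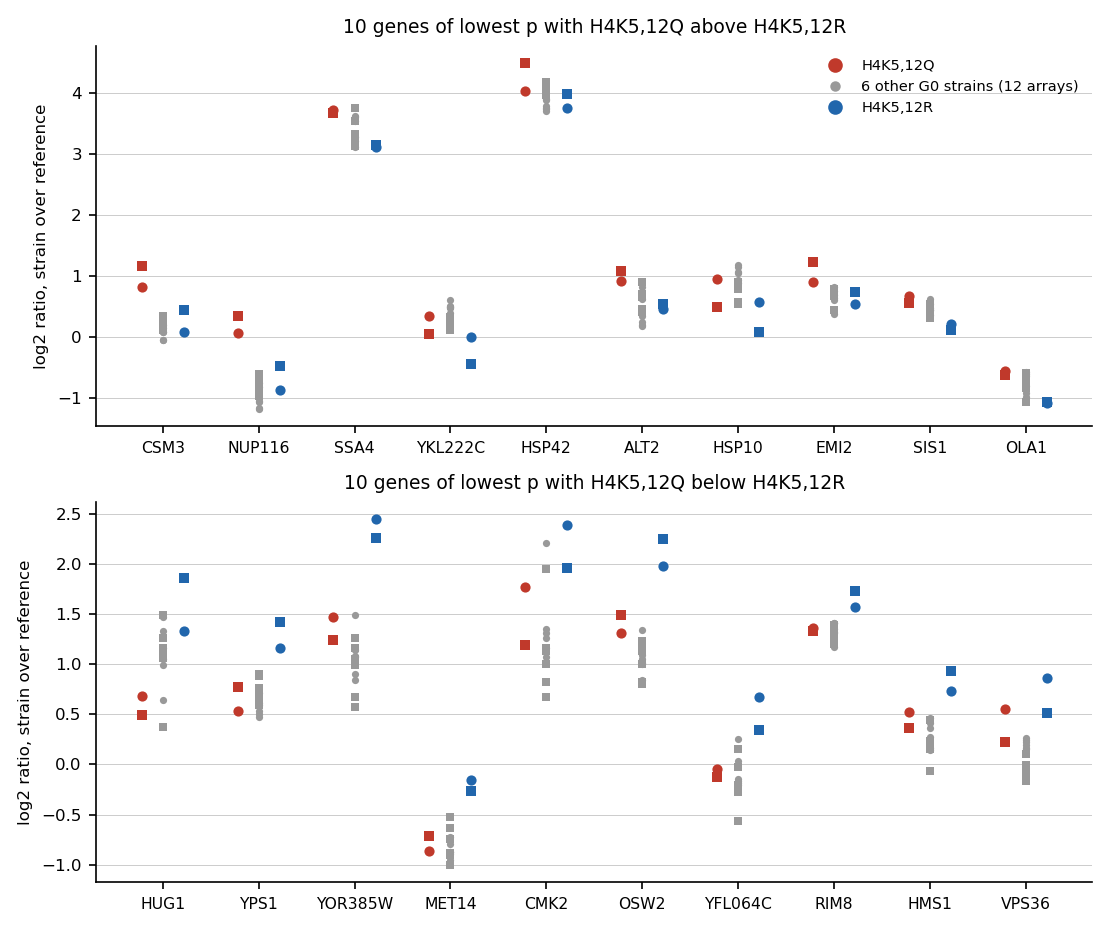
Log2 ratio of strain over reference (y axis) on each G0 array for the 10 named genes of lowest p with H4K5,12Q above (upper panel) and below (lower panel) H4K5,12R. Red points are the 2 H4K5,12Q arrays, blue points the 2 H4K5,12R arrays and grey points the 12 arrays of 6 other strains, with circles for replicate a and squares for replicate b. For CSM3 and NUP116 both H4K5,12Q arrays lie above the grey points, as does, by less, H4K5,12R replicate b. For YPS1, YOR385W, MET14 and OSW2 both H4K5,12R arrays lie above them.

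HXT2, a hexose transporter induced at low glucose, was among the 7 probes beyond 1.7-fold, with a difference of -0.84 (SE 0.36). Its ratios were -0.40 and -1.60 in H4K5,12Q and -0.33 and 0.02 in H4K5,12R. The 12 arrays of the other strains ran from -2.21 to 1.11, so all 4 arrays of the H4 mutants lay within their range. H4K5,12Q replicate b was the lowest of the 4, and without it the difference was -0.24. Over 12 measured hexose transporters and sensors the median was 0.05. HXT2 was the 1 gene at an unadjusted p under 0.05, 8.3% of the list, against 1.91% of all probes lower.

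No histone gene had an interval that left out 0. HHT2, the H3 gene that remains in these strains, had ratios of 0.84 and 0.55 in H4K5,12Q and of 0.77 and 0.31 in H4K5,12R. The difference was 0.16 (SE 0.12, 95% interval -0.12 to 0.44, adjusted p = 1.00). HHF2, which carries the substitutions, had ratios of -0.59 and -0.90 in H4K5,12Q and of -0.45 and -0.82 in H4K5,12R. The difference was -0.11 (SE 0.15, 95% interval -0.44 to 0.22), and its sign changed with normalization within print tips. The interval leaves room for a difference in H4 mRNA of up to 0.44 on the log2 scale. The HHT1 and HHF1 probes gave signal above background on all 4 arrays although the genes are deleted, with ratios of -1.67 to -1.33. H3 and H4 each have near-identical gene copies, and these probes can bind HHT2 and HHF2 RNA. Over 11 histone genes the median was 0.03, with 0 higher and 0 lower at an unadjusted p under 0.05, and the H2A and H2B genes HTA1, HTA2, HTB1 and HTB2 differed by 0.01 to 0.07.

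The genes that write, read or erase acetylation also lay close to 0. HAT1, the enzyme for the replaced lysines, had ratios of -1.21 and -0.91 in H4K5,12Q and of -1.13 and -0.91 in H4K5,12R, a difference of -0.04 (SE 0.16). HAT2 and HIF1 differed by 0.06 (SE 0.17) and 0.06 (SE 0.29). These SEs take in the spread of strains that lack the gene. For HIF1 the hif1Δ arrays lay at -2.55 and -1.33. The H4K5,12Q arrays lay at 0.05 and -0.23, and the H4K5,12R arrays at -0.08 and -0.22. The 13 histone acetyltransferases spanned -0.13 to 0.09 and the 18 deacetylases and silencing factors spanned -0.26 to 0.17. At an unadjusted p under 0.05 both lists had 0 genes in either direction. SIR2, SIR3 and SIR4, the silencing proteins that bind the H4 tail or act with those that do, differed by 0.17 (SE 0.10), 0.13 (SE 0.09) and 0.03 (SE 0.15). The 10 bromodomain genes had a median of 0.04 with 0 past this level. Of 16 histone chaperones 1 was higher (6.25%, against 2.27% of all probes), RLF2, the large subunit of CAF-1, at 0.17 (SE 0.07).

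A list of the NuB4 subunits with HHT2, HHF2, ADH1, ADH2, BUD3 and SPA2 had a median of 0.00 over 9 measured genes and 0 at an unadjusted p under 0.05. The text of the study names the promoters of IMD1, ADH2, HHT2 and ADH1 as turnover loci. IMD1 was listed but not measured, and BUD3 and SPA2 are not named in that text. ADH2, the glucose-repressed alcohol dehydrogenase, had ratios of 2.47 and 3.11 in H4K5,12Q and of 2.23 and 2.68 in H4K5,12R. The difference was 0.33 (SE 0.24, 95% interval -0.20 to 0.86), which includes 0, and it was -0.12 with normalization within print tips. ADH1, the main fermentative alcohol dehydrogenase, differed by 0.00 (SE 0.25). BUD3 and SPA2, which act in bud-site selection and polarity, differed by -0.07 (SE 0.14) and -0.11 (SE 0.15).

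Genes at chromosome ends were taken as the 15 outermost protein-coding genes at each end, 480 genes of which 356 had a named probe. Their median difference was 0.02. At an unadjusted p under 0.05, 25 were higher in H4K5,12Q (7.02%, against 2.27% of all probes) and 12 were lower (3.37%, against 1.91%). Without H4K5,12Q replicate b the 25 became 12, and without H4K5,12Q replicate a or H4K5,12R replicate b the 12 became 7. The 12 became 19 with a normexp offset of 10. With the 4, the 8 or all 36 arrays, 43 to 57 were higher and 22 to 30 lower, in fits that also passed more probes overall. None of the 356 passed the adjusted threshold.

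ERR1, one of a set of near-identical enolase-related genes at chromosome ends, had ratios of 1.35 and 1.57 in H4K5,12Q and of 0.82 and 0.78 in H4K5,12R, a difference of 0.66 (SE 0.17). AIF1, a mitochondrial cell death effector, had ratios of -2.03 and -1.53 against -2.54 and -2.35, and it was H4K5,12R that lay below all 12 other arrays, which began at -2.09. GIT1, a glycerophosphoinositol permease and the 1 phosphate starvation gene at an unadjusted p under 0.05, had ratios of 0.60 and 0.47 against 0.10 and 0.08. It was 7.7% of that list, against 2.27% of all probes higher. The COS genes, a family of membrane proteins near chromosome ends, had a median of 0.05 over 10 members, and the seripauperin and anaerobic cell wall genes had a median of 0.00 over 15. In both families 0 genes were at an unadjusted p under 0.05.

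Apart from the general stress genes described above, the gene groups that mark entry into G0 lay close to 0 in the difference. Genes of quiescence and stationary phase had a median difference of 0.05 over 17 measured, gluconeogenesis, glyoxylate and acetate genes -0.02 over 20, and genes of the respiratory chain and ATP synthase 0.00 over 37. Cytoplasmic ribosomal protein genes had a median of 0.05 over 27 and ribosome biogenesis genes 0.07 over 30. In none of these 5 lists was a gene at an unadjusted p under 0.05. The levels themselves were far from the reference: the median ratio of the gluconeogenesis list was 4.08 to 4.55 on the 4 arrays and that of the ribosome biogenesis list -1.75 to -1.56.

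In the remaining lists few genes stood out. Among 32 amino acid biosynthesis genes, with a median of 0.04, HOM3, HOM2 and ARO3 were higher and HIS5 was lower at an unadjusted p under 0.05. These were 9.4% and 3.1% of the list, against 2.27% higher and 1.91% lower over all probes. HOM3, the aspartate kinase, differed by 0.40 (SE 0.17). Phosphate starvation genes had a median of 0.10 over 13. Among 17 a-specific, alpha-specific and pheromone response genes, with a median of 0.06, FAR1, the Cdk inhibitor of the pheromone arrest, was higher by 0.36 (SE 0.12). FAR1 was the 1 gene past the unadjusted level, 5.9% of the list, against 2.27% of all probes higher.

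Among 20 meiosis and sporulation genes, with a median of 0.01, IME1, the master regulator of meiotic entry, had ratios of 0.56 and 1.23 in H4K5,12Q and of 1.22 and 1.73 in H4K5,12R. The arrays overlapped across dye orientations and H4K5,12Q was lower within each, by -0.58 in the fit (SE 0.16). NDT80, a later meiotic transcription factor, was higher by 0.28 and SMK1, a meiotic kinase, lower, at -0.30. At an unadjusted p under 0.05, 5% of this list was higher and 10% lower, against 2.27% and 1.91% of all probes. Autophagy genes had a median of -0.01 over 22, with ATG5 lower at -0.34 (SE 0.12), 4.5% of the list against 1.91% of all probes. G1/S and DNA replication genes had a median of 0.04 over 20 and G2/M genes 0.04 over 14. SMC3, a cohesin subunit, at 0.22 and CDC20, an activator of the anaphase-promoting complex, at -0.25 were past the unadjusted level. These were 5% and 7.1% of their lists, against 2.27% higher and 1.91% lower over all probes. The 7 strain marker genes had a median of 0.04 with 0 past it.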

How the data were processed

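For each array the authors deposited an intensity per spot and channel with its surrounding background, as read by the scanner. The authors also deposited log2 ratios of strain to reference that had been normalized within the array; the submitters' processing notes give limma 2.12.0. One more deposited table holds the authors' own changes and p-values and was not used. In these files 0 sample columns were left out.

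Background was corrected by normexp with an offset of 50, and loess normalization was run on each array with control spots at weight 0, in R 4.3.3 with limma 3.58.1. The 2 spots of a probe were averaged and ratios turned to strain over reference. All 16 G0 arrays were fitted with limma, with strain and dye orientation as terms, and the Benjamini-Hochberg adjustment covered 6388 probes. Dye orientation equals the replicate letter, so its term, common to all 16 G0 arrays, also stands for the replicate block. A common term does not take up deviations that the H4 mutants share and the other strains do not. Deviations of same-letter arrays from their strain means correlated at 0.76 for the H4 mutants and at -0.22 to 0.76 over all 28 pairs of strains. A probe was above background when its spots exceeded local background by 2 SDs. The fit was tested on simulated data.

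Of the probes, 5326 have a symbol and 1062 have none. Of the 5311 symbols used, 5309 were found in the reference table, and of 2 probes for a gene the brighter stands for it. No build is named in the sources used here, so no coordinates are given and chromosome ends were defined by gene order.

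Members, genes and 25 lists were chosen with earlier results of these data known, and 3 further lists and the list of chromosome ends after the values had been seen. Since no probe was called, the 10 named genes of lowest p in each direction are given, beside the histone, NuB4 and turnover loci, BUD3, SPA2 and list members. NUP116, CSM3 and ERB1 as a run, DIA1, HXT2, RAS2, DLD3, SDA1 and DDI3 were singled out after their values were seen. In groups of 2 arrays an exact permutation test cannot reach a p under 0.05, so none was run. For arrays, the number per strain limits the precision.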

Additional observations from a re-analysis of the deposited data

How the results depend on the processing

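The count of 0 probes at an adjusted p under 0.05 stayed at 0 without background correction, with quantile normalization of mean intensities (which leaves ratios as they were) and with a threshold of 1.7-fold and an adjusted p under 0.01. It became 5 with a normexp offset of 10, 1 with print-tip loess, 2 with median centring, 2 with the deposited ratios, 2 without the dimmest 25% of probes, 2 with only the 4 arrays, 1 with the 8 arrays of the same set and 64 (33 higher, 31 lower) with all 36 arrays. The cause of the last was not tested. Without the replicate block it was 0, with 72 probes higher and 78 lower at an unadjusted p under 0.05 in place of 145 and 122. Leaving out 1 array gave 0 to 1, the 1 being NUP116 without either hat1Δ array. Without H4K5,12Q replicate b, 83 probes were higher at an unadjusted p under 0.05.

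The sign turned, with no adjusted p under 0.05, for HHF2 (0.072), ADH1 (0.17), ADH2 (-0.12) and HSP82 (-0.024) with print-tip loess and for HSP82 (-0.0064) with the deposited ratios. Leaving out 1 array gave -0.32 to 0.10 for HHF2, 0.01 to 0.30 for HHT2, -0.17 to 0.086 for HAT1, -0.014 to 0.14 for HAT2, -0.20 to 0.32 for HIF1, -0.20 to 0.19 for ADH1, -0.22 to 0.079 for BUD3 and -0.28 to 0.049 for SPA2. The medians of the stress and chromosome end lists moved by less than the spread between arrays. With 2 arrays a strain, the 95% interval of a difference reached 0.15 to 0.44 to either side for probes between the 10th and the 90th percentile.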
